A study of Mus musculus with 6 samples.

Results

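The 47 genes described here are interferon-stimulated genes, followed in mouse invariant natural killer T (iNKT) cells of 3 organs. They were chosen by symbol from the 27998 genes of the count tables, and all 47 were found. Of these, 42 are taken as targets of type I interferon, and the other 5 (Gbp2, Igtp, Iigp1, Irgm1 and Irf1) as targets of interferon-gamma. iNKT cells are T cells that recognise lipids on CD1d through a nearly uniform T cell receptor. They came from liver, spleen and lymph node of C57BL/6 mice of wild-type genotype at 5 weeks of age, with 2 libraries per organ. Each suspension was first depleted of cells bearing CD8 or B220, and cells binding both a CD1d tetramer and a TCR-β antibody were then sorted. Sex, batch and the number of mice in a library are not in the labels, which name the molecule as nuclear RNA. The methods call the libraries of an organ biological repeats, and p-values cover the spread between such pairs only.

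Interferons are secreted proteins that warn cells of infection. Type I interferons bind a receptor made of Ifnar1 and Ifnar2, which leads through the kinases Jak1 and Tyk2 to a complex that holds Stat2 and Irf9. This complex binds the interferon-stimulated response element (ISRE) in target promoters. Interferon-gamma, which activated iNKT cells themselves secrete, binds Ifngr1 and Ifngr2, and its signal reaches a different element, the gamma-activated site (GAS). Many targets answer to either pathway, so the division into type I and interferon-gamma targets is one of degree. Several members have relatives in the same gene family (Ifit3 and Ifit3b, Ifi203 and Ifi204, the Oas, Gbp and Slfn genes). Where their sequences are alike, short 3′ reads may be divided uncertainly between them.

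Promoter stretches of 7 members are shown because they carry the elements that name the 2 pathways. They were read from RefSeq promoter windows (GRCm38.p6, 250 bases before to 50 bases after a transcription start), which were at hand for 36 of the 47 members. Capitals mark a match to the ISRE core GAAANNGAAA (or TTTCNNTTTC, the same letters on the other strand) or to the GAS letters TTCNNNGAA, which read alike on both strands. Matches may overlap. All stretches lie upstream of the transcription start of their window and are written 5′ to 3′ on the strand of the gene.
Ifit1: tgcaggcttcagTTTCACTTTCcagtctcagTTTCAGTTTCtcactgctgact
Ifit3: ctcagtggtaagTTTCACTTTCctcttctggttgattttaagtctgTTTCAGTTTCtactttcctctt
Isg15: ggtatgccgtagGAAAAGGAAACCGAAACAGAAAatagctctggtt
Rsad2: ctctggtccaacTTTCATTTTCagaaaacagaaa
Gbp2: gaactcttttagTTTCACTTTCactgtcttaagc
Igtp: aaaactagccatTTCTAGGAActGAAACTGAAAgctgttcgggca
Irf1: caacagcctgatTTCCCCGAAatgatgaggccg
The Ifit1 stretch is at chr19:34640773-34640825 (plus strand) and holds 2 ISRE cores. Ifit3 also has 2, at chr19:34583361-34583428 (plus strand). Isg15 has 3 overlapping cores at chr4:156200863-156200908 (minus strand), and Rsad2 has 1 at chr12:26456551-26456584 (minus strand). Of the interferon-gamma targets, Gbp2 has 1 ISRE core at chr3:142620592-142620625 (plus strand), Igtp has an ISRE core beside a GAS at chr11:58199499-58199543 (plus strand), and Irf1 has a GAS alone at chr11:53769912-53769944 (plus strand). An ISRE core stood in the window of 21 of the 36 members (58.3%), against 3.99% of all 27025 genes with a window. GAS letters stood in 9 of the 36 (25%), against 9.55% of all genes. Among the 4 interferon-gamma targets with a window, 3 held an ISRE core and 2 held GAS letters. A match is a description of letters and was not tied here to binding.

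The libraries differ in ways that go with the organ. Counts are of unique molecular identifiers (UMIs), each of which marks 1 captured RNA molecule. A library held 2638 to 2861 cells, 16532 in all, and a median cell held 3592 and 2880 UMIs in liver, 1724 and 1554 in spleen, against 1730.5 and 1470 in lymph node. Total UMIs per library ran from 4768016 to 11086603. The iNKT markers Cd3e, Cd3d and Zbtb16 summed to 2625 to 3369 CPM in every library. CPM are UMIs per 1000000 UMIs of the genes kept, without 123 ribosomal and haemoglobin genes. Those genes held 34.5% and 32.2% of UMIs in liver, 28.6% and 28.0% in spleen, against 27.3% and 23.4% in lymph node. Markers of iNKT1 cells, the interferon-gamma-producing subset, fell from 3259 and 3409 CPM in liver to 849 and 840.0 in lymph node, where markers of iNKT17 cells reached 1067 and 1159 against at most 289 elsewhere. Immediate-early genes such as Fos and Jun, which rise with cell handling and activation, stood at 6059 and 6580 CPM in lymph node and at 586 to 1117 elsewhere. RNA of 4 Y-chromosome genes was found in the lymph node libraries alone (365 and 433 CPM), and Xist RNA in the liver and spleen libraries alone, so the organ cannot be told apart from the sex of the mice between lymph node and the rest. Red cell RNA reached 552 and 859 CPM in liver and at most 0.277 elsewhere. B cell markers were at most 17.0, and the sum of the 8 myeloid markers stood at 200 to 367, mostly from Cst3 (779 to 1357 UMIs). Lyz2, a marker more particular to myeloid cells, gave 392 UMIs in lymph node library 2, 109 in liver library 2 and 3 to 35 in the other libraries. The 5 dendritic cell markers summed to 0.536 to 2.29 CPM, with Siglech, Flt3 and Clec9a at 0 in every library and Xcr1 and Itgax at 0 to 8 UMIs. An alternative below, called without cells of other types, left out cells with at least 2 UMIs of B cell, myeloid, dendritic, red cell or hepatocyte markers. These were 389 and 313 cells in liver, 116 and 114 in spleen, against 193 and 174 in lymph node. Since Cst3 and haemoglobin genes are among these markers, a cell left out need not be of another type. Pairs of libraries shared 6 to 20 cell barcodes. The part of any of these in the results below was not tested.

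The members lie on 16 chromosomes and all are protein-coding genes. All 47 had UMIs, but their levels spread widely. Ifi27l2a, which encodes a small membrane protein, alone gave 32.6% to 33.0% of the UMIs of all members in liver, 28.8% to 30.3% in spleen, against 23.8% to 25.6% in lymph node. Levels are given below as normalized CPM, for library 1 and then library 2 of an organ. That of Ifi27l2a was 1792 and 2033 in liver, 1444 and 1422 in spleen, against 1047 and 818 in lymph node. In contrast, Ifi44 was too low to be tested, and Oas2, a synthetase of the second messenger that activates RNase L, was at 5.22 and 6.81 in liver, 1.30 and 1.73 in spleen, against 2.18 and 2.21 in lymph node. Averaged over the libraries of an organ, 31 of the 46 tested members had their highest mean in liver, 7 had it in spleen and 8 in lymph node. Lymph node had the lowest mean for 31 of them. These levels are per molecule captured near the 3′ end and do not depend on transcript length.

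**Figure D1:**
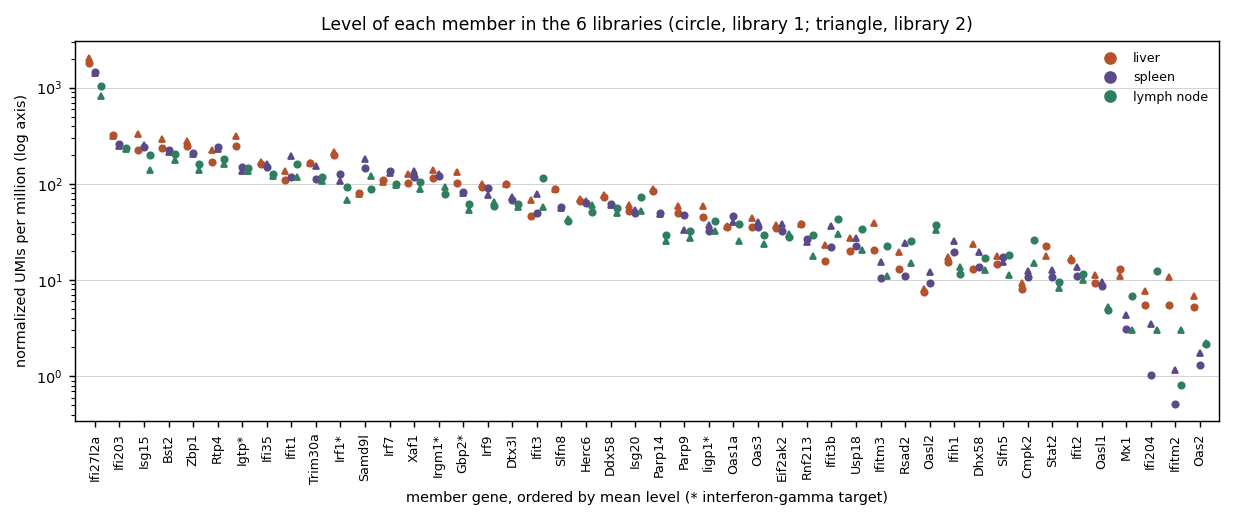
Level of each tested member in the 6 libraries, in TMM-normalized CPM on a log axis, with genes ordered by mean level. Circles are library 1 and triangles library 2 of an organ. Ifi27l2a stands alone at the top, the members from Oasl1 to Oas2 lie lowest, and for members such as Parp14, Slfn8 and Irf1 both liver points lie above the other 4.

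Organs were compared on the UMIs summed over all cells of each library with edgeR's quasi-likelihood test and Benjamini-Hochberg adjustment over all 10242 genes tested, and a gene was called at an adjusted p below 0.05. In such sums, fewer expressing cells and less RNA per cell cannot be told apart, so the levels of single cells follow further below. The 3 contrasts share libraries and are therefore given side by side only. Between liver and lymph node, 26 members were higher in liver and 4 lower, that is 30 of 46 against 37.5% of all genes tested (17.9% higher in liver and 19.6% lower). The median log2 difference of the members was 0.51, against 0.01 over all genes. Between liver and spleen, 16 were higher in liver and 2 lower (12.8% and 13.0% of all genes, 25.8% in sum), with a median of 0.19 against 0.02. Spleen exceeded lymph node for 15 members and was below it for 2 (7.89% and 10.3% of all genes, 18.2% in sum), with a median of 0.22 against 0.00. In all, 34 of 46 members were called in at least 1 contrast, against 48.3% of all genes. A gene was tested where 2 libraries reached 2.63 CPM, and Ifitm2 and Oas2 passed this filter through the liver libraries, so that they had to differ. Of the other 44 members, 24 were higher and 4 lower in liver than in lymph node, and 14 were higher and 2 lower in liver than in spleen. Under each alternative processing that tested them, 15 of 30 calls held for liver against lymph node, without Ifitm2 and Oas2 among the 15. For liver against spleen 8 of 18 held, but the 8 include Ifitm2 and Oas2, which had to differ. For spleen against lymph node 2 of 17 held. The last of these counts fell to 10 without spleen library 1, to 11 without lymph node library 1 and to 7 without lymph node library 2, while the share of all genes called fell from 18.2% to 14.1%, 12.0% and 9.68%.

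The 5 interferon-gamma targets were higher in liver than in lymph node. Irf1, a transcription factor induced early by interferon-gamma, stood at 199 and 216 in liver, 126 and 108 in spleen, against 93.4 and 67.3 in lymph node. Liver exceeded lymph node by a log2 difference of 1.37 ± 0.13 (SE; adjusted p = 1.46e-09) and spleen by 0.83 ± 0.13 (SE; adjusted p = 2.62e-05), and the 3 organs did not overlap. The difference of Irf1 between spleen and lymph node was 0.54 ± 0.14 (SE; adjusted p = 0.00544) and was not called without spleen library 1 (0.43) or lymph node library 2 (0.32). Gbp2, a guanylate-binding protein that attacks vacuoles holding pathogens, stood at 103 and 133 in liver, 81.5 and 80.4 in spleen, against 62.1 and 53.5 in lymph node. Its liver libraries were above all others, by 1.03 ± 0.14 (SE; adjusted p = 2.76e-07) over lymph node and 0.54 ± 0.13 (SE; adjusted p = 0.00273) over spleen, although the call against spleen was lost without liver library 2 (0.36). Gbp2 was also higher in spleen than in lymph node (0.49 ± 0.14 SE, adjusted p = 0.0149), a call lost without spleen library 1 (0.48) or lymph node library 2 (0.37), or with DESeq2 (0.49) or with cells thinned to 1000 UMIs (0.45).

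Igtp, Iigp1 and Irgm1 encode immunity-related GTPases, which act on the membranes of pathogen-holding vacuoles and on autophagy. Igtp stood at 250.5 and 314 in liver, 151 and 136 in spleen, against 148 and 137 in lymph node, high in liver and alike in the other organs. Its log2 difference was 0.98 ± 0.12 (SE; adjusted p = 7.93e-08) to lymph node and 0.97 ± 0.12 (SE; adjusted p = 5.72e-07) to spleen, while that of spleen to lymph node was 0.01 with a 95% interval of -0.25 to 0.27. Iigp1 stood at 45.7 and 59.5 in liver, 32.6 and 37.2 in spleen, against 41.4 and 32.6 in lymph node, and liver was higher than spleen by 0.59 ± 0.16 (SE; adjusted p = 0.00736) and than lymph node by 0.50 ± 0.16 (SE; adjusted p = 0.0134). Liver library 2 was the highest of all. The call against spleen was lost without liver library 2 (0.41) or spleen library 1 (0.50), or with DESeq2 (0.58), with cells thinned to 1000 UMIs (0.44) or without cells of other types (0.45), and the call against lymph node without liver library 2 (0.31) or lymph node library 2 (0.34), or with DESeq2 (0.49), with cells thinned to 1000 UMIs (0.26) or without cells of other types (0.30). The latter difference was 0.88 without Ifit-positive cells. Irgm1 followed another order, with 114 and 141 in liver, 119 and 126 in spleen, against 79.0 and 92.7 in lymph node. Here liver and spleen overlapped (0.06, 95% interval -0.20 to 0.31) and both were above lymph node, by 0.57 ± 0.13 (SE; adjusted p = 6.30e-04) and 0.51 ± 0.13 (SE; adjusted p = 0.00487). The latter call was lost without lymph node library 1 (0.40).

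Parp14, Parp9, Dtx3l, Stat2 and Irf9 were among the type I members higher in liver than in lymph node. Parp14, an ADP-ribosyltransferase that modulates cytokine signalling, stood at 84.1 and 88.4 in liver, 49.8 and 48.1 in spleen, against 29.4 and 25.7 in lymph node, which put the organs in 3 separate steps. Its log2 difference was 1.65 ± 0.15 (SE; adjusted p = 6.05e-11) between liver and lymph node, 0.82 ± 0.13 (SE; adjusted p = 3.84e-05) between liver and spleen and 0.83 ± 0.16 (SE; adjusted p = 1.92e-04) between spleen and lymph node, and no alternative ended any of these 3 calls. Parp9 and its partner Dtx3l, a ubiquitin ligase, were higher in liver than in lymph node by 0.85 ± 0.17 (SE; adjusted p = 1.26e-04) and 0.75 ± 0.13 (SE; adjusted p = 1.76e-05). Stat2, a subunit of the complex that binds the ISRE, stood at 22.4 and 17.8 in liver, 10.7 and 12.7 in spleen, against 9.53 and 8.28 in lymph node. It was higher in liver than in lymph node by 1.18 ± 0.24 (SE; adjusted p = 1.60e-04) and than in spleen by 0.79 ± 0.22 (SE; adjusted p = 0.00947), and the call against spleen was lost without liver library 1 (0.63) or spleen library 1 (0.67), or with DESeq2 (0.78). Irf9, the DNA-binding subunit of that complex, stood at 93.4 and 98.8 in liver, 89.9 and 77.3 in spleen, against 59.4 and 64.6 in lymph node and was higher in liver than in lymph node by 0.63 ± 0.13 (SE; adjusted p = 2.00e-04). Irf9 was also called between spleen and lymph node (0.43 ± 0.13 SE, adjusted p = 0.0208), but not without spleen library 1 (0.32), lymph node library 1 (0.38) or lymph node library 2 (0.49), or with DESeq2 (0.43) or with cells thinned to 1000 UMIs (0.40).

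Several effector genes were also higher in liver than in lymph node. Slfn8, a member of the Schlafen family, stood at 89.1 and 89.4 in liver, 57.6 and 56.5 in spleen, against 41.4 and 42.8 in lymph node, and liver exceeded lymph node by 1.08 ± 0.13 (SE; adjusted p = 7.74e-08) and spleen by 0.65 ± 0.13 (SE; adjusted p = 4.08e-04). Its spleen libraries were above those of lymph node by 0.44 ± 0.14 (SE; adjusted p = 0.0294), which was not called without spleen library 1 (0.43), spleen library 2 (0.46), lymph node library 1 (0.42) or lymph node library 2 (0.45), or with DESeq2 (0.44) or with cells thinned to 1000 UMIs (0.38). Ifi27l2a, with the levels given above, was higher in liver than in lymph node by 1.04 ± 0.13 (SE; adjusted p = 9.71e-08) and in spleen than in lymph node by 0.62 ± 0.13 (SE; adjusted p = 5.93e-04). Its difference between liver and spleen (0.42 ± 0.13 SE, adjusted p = 0.0163) was not called without liver library 2 (0.34), spleen library 1 (0.43) or spleen library 2 (0.41), and that between spleen and lymph node not without lymph node library 2 (0.44). Isg15, a ubiquitin-like protein conjugated to others in infected cells, stood at 227 and 331 in liver, 242 and 252 in spleen, against 201 and 138 in lymph node. Lymph node lay below the other organs, which overlapped each other, and the difference between liver and lymph node, 0.72 ± 0.21 (SE; adjusted p = 0.0277), was not called without lymph node library 2 (0.48), or with the replicate block (0.71), with DESeq2 (0.71), with cells thinned to 1000 UMIs (0.53) or without cells of other types (0.68). Without liver library 2 it was called at 0.43. The replicate block is a term for the library number, which did not pair the libraries. Also higher in liver than in lymph node were Zbp1, a sensor of Z-form nucleic acid (0.80 ± 0.12 SE, adjusted p = 1.51e-06), and, at 0.42 to 0.72, Rnf213, Ifit2, Oas3, Trim30a, Ddx58, Bst2, Ifi203 and Ifi35. Of these last 8, the calls of Trim30a and Ifi203 held under every alternative. Those of Rnf213, Ddx58 and Ifi35 were lost without lymph node library 2 (0.41, 0.43 and 0.39), and Rnf213 stood at 1.13 without lymph node library 1. The call of Bst2 was lost without liver library 2 (0.31) or lymph node library 2 (0.36), and that of Oas3 without liver library 2 (0.43) or lymph node library 2 (0.45), or with DESeq2 (0.57), while Ifit2 is taken up below. Ifih1, a sensor of double-stranded RNA, Rtp4 and Xaf1 were called for spleen against lymph node alone, by 0.81, 0.47 and 0.38. Ifih1 was not called without spleen library 2 (0.62) or lymph node library 1 (0.70), or with DESeq2 (0.81) or with cells thinned to 1000 UMIs (0.73). Rtp4 was not called without spleen library 1 (0.43) or lymph node library 2 (0.38), nor Xaf1 without spleen library 2 (0.28) or lymph node library 2 (0.26), or with DESeq2 (0.38), with cells thinned to 1000 UMIs (0.35) or without cells of other types (0.37).

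Large differences in log2 terms also came from members with few UMIs. Ifitm2, an antiviral membrane protein gene, was seen as few molecules, with UMI counts of 41 and 67 in liver, 2 and 4 in spleen, against 3 and 11 in lymph node. Its levels were 5.49 and 10.9 in liver, 0.521 and 1.15 in spleen, against 0.817 and 3.04 in lymph node. Both liver libraries, no spleen library and 1 lymph node library reached the filter, so its differences are a description. Liver was higher than spleen by 3.25 ± 0.57 SE and than lymph node by 2.06 ± 0.48 SE, the latter 1.41 without lymph node library 1 and 3.27 without lymph node library 2. Mx1, a dynamin-like GTPase, stood at 13.0 and 11.03 in liver, 3.13 and 4.32 in spleen, against 6.81 and 3.04 in lymph node and was higher in liver than in spleen by 1.70 ± 0.34 (SE; adjusted p = 3.65e-04), a call lost with cells thinned to 1000 UMIs (1.02). Against lymph node its difference was 1.28 ± 0.32 (SE; adjusted p = 0.00170), which was not called without lymph node library 2 (0.82), and which stood at 1.98 without lymph node library 1 and at 2.12 without Ifit-positive cells (cells defined further below). Oas2, at the levels given above, was higher in liver than in spleen by 1.97 ± 0.45 SE and than in lymph node by 1.44 ± 0.42 SE. No spleen or lymph node library reached the filter for Oas2, which was tested through liver alone, and these differences too are a description. Oasl1, a relative of the Oas enzymes that lacks their activity, stood at 9.38 and 11.2 in liver, 8.60 and 9.51 in spleen, against 4.90 and 5.24 in lymph node, and its difference of 1.01 ± 0.30 (SE; adjusted p = 0.00726) between liver and lymph node was not called without lymph node library 1 (0.97), or with DESeq2 (1.01), with cells thinned to 1000 UMIs (1.12) or without Ifit-positive cells (0.84).

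A few members went the other way. Oasl2, which in the mouse combines an Oas-like core with ubiquitin-like domains, stood at 7.501 and 8.11 in liver, 9.38 and 12.1 in spleen, against 37.6 and 33.4 in lymph node. The lymph node libraries were far above the other 4, by a log2 difference of -2.18 ± 0.21 (SE; adjusted p = 4.34e-10) for liver minus lymph node and -1.73 ± 0.22 (SE; adjusted p = 3.46e-07) for spleen minus lymph node, and no alternative ended either call. Cmpk2, a mitochondrial nucleotide kinase gene next to Rsad2, stood at 8.17 and 9.41 in liver, 10.7 and 12.4 in spleen, against 26.1 and 15.2 in lymph node. It was lower in liver than in lymph node (-1.24 ± 0.25 SE, adjusted p = 1.50e-04) and in spleen than in lymph node (-0.84 ± 0.26 SE, adjusted p = 0.0191). The first call was lost without lymph node library 1 (-0.79). The second was lost without spleen library 1 (-0.73) or lymph node library 1 (-0.40), or with DESeq2 (-0.84), with cells thinned to 1000 UMIs (-0.94) or without Ifit-positive cells (-0.45). Samd9l, an antiviral translation inhibitor, stood at 81.2 and 78.9 in liver, 145 and 182 in spleen, against 88.5 and 119 in lymph node and was highest in spleen. Liver minus spleen was -1.03 ± 0.13 (SE; adjusted p = 3.05e-06) and held under every alternative. Spleen exceeded lymph node by 0.65 ± 0.14 (SE; adjusted p = 9.51e-04), which was not called without lymph node library 1 (0.45), and liver was below lymph node (-0.38 ± 0.14 SE, adjusted p = 0.0325), a call lost without liver library 1 (-0.39), liver library 2 (-0.35) or lymph node library 2 (-0.14), or under 5 other alternatives with values from -0.39 to -0.33, and held under 7 of 15. Without lymph node library 1 it was -0.57. Irf7, the transcription factor that amplifies interferon production, stood at 109 and 106 in liver, 137 and 131 in spleen, against 99.7 and 96.3 in lymph node. Spleen was above liver (-0.32 ± 0.11 SE, adjusted p = 0.0403 for liver minus spleen) and above lymph node (0.45 ± 0.12 SE, adjusted p = 0.00643). The first call was lost without liver library 1 (-0.33), liver library 2 (-0.28), spleen library 1 (-0.28), spleen library 2 (-0.35), lymph node library 1 (-0.32) or lymph node library 2 (-0.31), or under 5 other alternatives with values from -0.33 to -0.28, and held under 4 of 15. The second was lost without spleen library 1 (0.42) or lymph node library 2 (0.42).

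Ifit1, Ifit3, Rsad2 and Usp18, which are much used as marks of the type I response, were not called in any of the 3 contrasts over all cells. Ifit1, whose product binds foreign RNA caps, stood at 109.7 and 136 in liver, 117 and 194 in spleen, against 161 and 119 in lymph node, with 95% intervals of the log2 difference of -1.09 to 0.41 for liver minus spleen and -0.94 to 0.57 for liver minus lymph node. Ifit3 stood at 46.1 and 67.8 in liver, 50.02 and 78.7 in spleen, against 116 and 57.4 in lymph node, with an interval of -2.10 to 0.87 for liver minus lymph node. Rsad2, or viperin, which makes a chain-terminating nucleotide, stood at 13.1 and 19.6 in liver, 10.9 and 24.5 in spleen, against 25.3 and 14.9 in lymph node (interval -1.23 to 0.62). Usp18, which removes Isg15 from its targets and silences the type I receptor, stood at 20.0 and 27.4 in liver, 22.4 and 27.1 in spleen, against 34.0 and 20.7 in lymph node (interval -0.66 to 0.22). In these 4 genes spleen library 2 was above spleen library 1, and lymph node library 1 above lymph node library 2. The other 2 Ifit genes were called for liver against lymph node, in opposite directions. Ifit2 stood at 16.1 and 16.9 in liver, 10.9 and 13.8 in spleen, against 11.4 and 9.93 in lymph node and was higher in liver (0.62 ± 0.23 SE, adjusted p = 0.0329), a call lost without liver library 1 (0.66), liver library 2 (0.60), lymph node library 1 (0.73) or lymph node library 2 (0.53), or with DESeq2 (0.61), without cells of other types (0.49) or without Ifit-positive cells (0.66). At 1000 UMIs per cell it was 1.06. Ifit3b stood at 15.7 and 23.0 in liver, 22.1 and 36.3 in spleen, against 43.6 and 29.8 in lymph node and was lower in liver (-0.93 ± 0.25 SE, adjusted p = 0.00849), a call lost without liver library 1 (-0.67) or lymph node library 1 (-0.63), or without Ifit-positive cells (-0.77). Ifi204, a DNA-binding sensor gene, spread widely, at 5.49 and 7.79 in liver, 1.04 and 3.46 in spleen, against 12.5 and 3.04 in lymph node (interval -1.50 to 1.02). The exonuclease gene Isg20 stood at 52.4 and 60.2 in liver, 50.02 and 53.3 in spleen, against 73.2 and 52.7 in lymph node and was not called. Nor was the Schlafen gene Slfn5, at 14.6 and 18.0 in liver, 17.2 and 15.3 in spleen, against 18.2 and 11.3 in lymph node. The other members without a call were Dhx58, Eif2ak2, Herc6, Ifitm3 and Oas1a. The intervals given here are wide enough to hold differences of the size called in other members, that of Usp18 only for lower levels in liver.

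**Figure D2:**
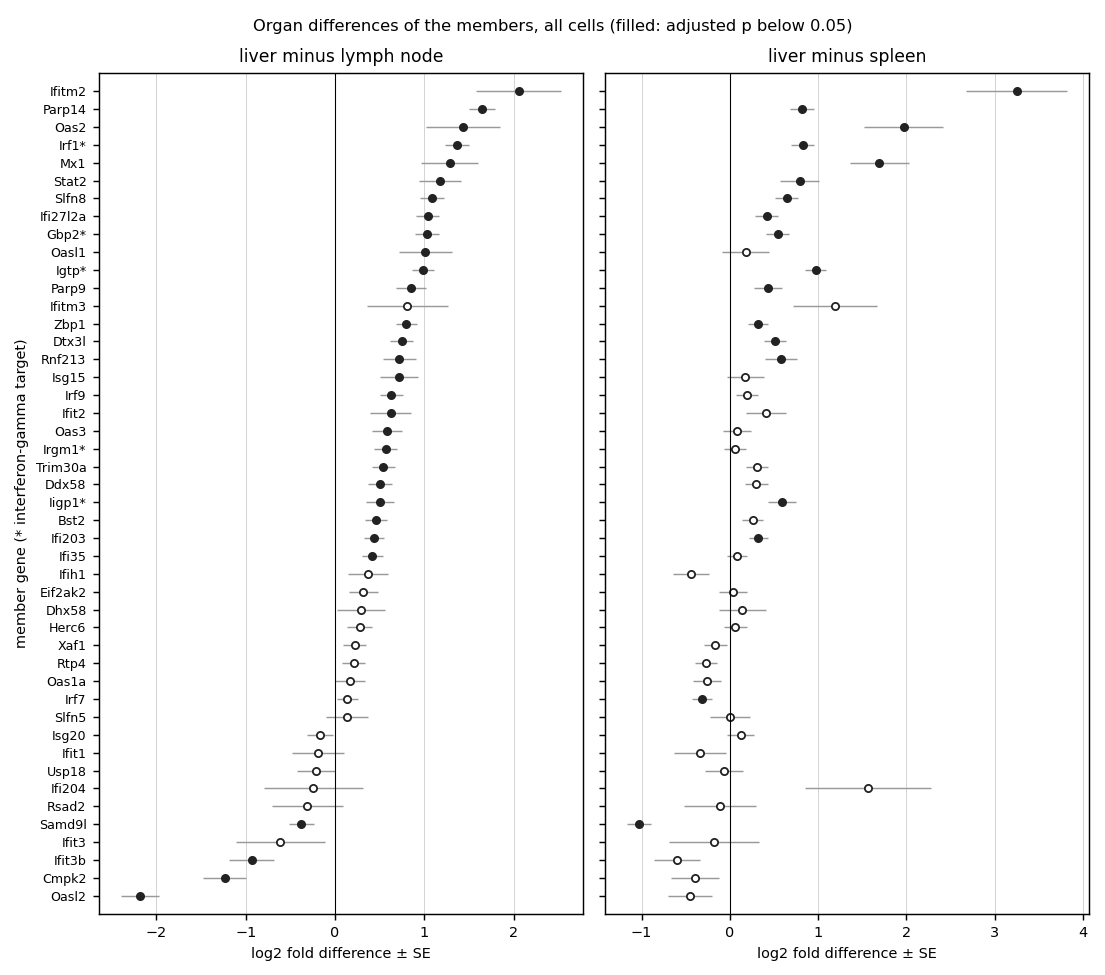
Log2 difference of liver minus lymph node (left) and of liver minus spleen (right) for the 46 tested members, from UMIs summed over all cells. Points are estimates, bars are 1 SE, and filled points are adjusted p below 0.05. Most filled points lie right of 0, while Oasl2, Cmpk2, Ifit3b and Samd9l lie left of it against lymph node, and the points of Ifit1, Ifit3 and Rsad2 are open in both panels.

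The ratio of the 2 groups of targets shifted with the organ. The 5 interferon-gamma targets summed to 747 and 871 CPM in liver, 505 and 469 in spleen, against 417 and 381 in lymph node. The type I members without Ifi27l2a summed to 3074 and 3375 in liver, 2781 and 2918 in spleen, against 2572 and 2219 in lymph node. The ratio of interferon-gamma to type I targets was therefore 0.243 and 0.258 in liver, 0.182 and 0.161 in spleen, against 0.162 and 0.172 in lymph node. Liver stood above the rest, and spleen and lymph node overlapped. The 4 Ifit genes had no such order, with 197 and 246 CPM in liver, 199 and 311 in spleen, against 327 and 215 in lymph node. Of the 5 interferon-gamma targets, 5 were called higher in liver than in lymph node, 4 higher in liver than in spleen and 3 higher in spleen than in lymph node, with median log2 differences of 0.98, 0.59 and 0.49, and none was called in the opposite direction. Of the 41 type I members tested, 21, 12 and 12 were called in these directions and 4, 2 and 2 in the opposite ones. The 21 and the first 12 include Ifitm2 and Oas2, which passed the filter through liver and had to differ. Over all genes 17.9%, 12.8% and 7.89% were called in these directions and 19.6%, 13.0% and 10.3% in the opposite ones.

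Other genes of the pathway showed organ differences as well. Of 15 further interferon-gamma targets tested, 13 were higher in liver than in lymph node and 10 higher in liver than in spleen, and none was lower (17.9% and 12.8% of all genes were higher in liver in these contrasts). Gbp3, another guanylate-binding protein, stood at 28.5 and 38.1 in liver, 20.3 and 10.4 in spleen, against 12.0 and 7.73 in lymph node and was higher in liver than in lymph node by 1.75 ± 0.27 (SE; adjusted p = 3.55e-05). In iNKT1-marker cells alone, which are described further below, Gbp3 was not called in this contrast (0.87 ± 0.40 SE, adjusted p = 0.156). Nlrc5, the activator of MHC class I genes, stood at 39.5 and 42.8 in liver, 16.9 and 13.0 in spleen, against 12.8 and 13.5 in lymph node and was higher in liver by 1.64 ± 0.19 (SE; adjusted p = 2.57e-08). Of 18 receptor and signalling genes, 13 were higher and 1 lower in liver than in lymph node (17.9% and 19.6% of all genes), and 9 were higher and 2 lower in liver than in spleen (12.8% and 13.0%). The ligand-binding chain Ifngr1 stood at 466 and 499 in liver, 161 and 177 in spleen, against 169 and 226 in lymph node and was higher in liver by 1.29 ± 0.13 (SE; adjusted p = 6.56e-10). Its partner chain Ifngr2 went the other way, at 2.41 and 3.57 in liver, 7.29 and 10.96 in spleen, against 27.5 and 38.4 in lymph node, and was lower in liver than in lymph node (-3.47 ± 0.27 SE, adjusted p = 3.50e-12). In iNKT1-marker cells alone the difference was -2.26 ± 0.68 (SE; adjusted p = 0.0159), and Ifngr2 was not called there for liver minus spleen (-1.17 ± 0.57 SE, adjusted p = 0.144, against -1.61 ± 0.33 (SE; adjusted p = 4.71e-04) over all cells) or spleen minus lymph node (-1.09 ± 0.66 SE, adjusted p = 0.431, against -1.86 ± 0.25 (SE; adjusted p = 1.09e-06)). Irf8, a factor that works with Irf1, stood at 66.6 and 90.5 in liver, 17.2 and 17.6 in spleen, against 18.2 and 17.9 in lymph node and differed by 2.11 ± 0.17 (SE; adjusted p = 8.32e-12). Nlrc5, Ifngr1 and Irf8 remained called higher in liver than in lymph node in iNKT1-marker cells, by 1.43, 1.13 and 1.59. Ifng itself stood at 99.7 and 157 in liver, 73.7 and 57.4 in spleen, against 126 and 107 in lymph node. It was higher in liver than in spleen (0.96 ± 0.23 SE, adjusted p = 0.0144), a call lost without spleen library 2 (0.80), or with the replicate block (0.95). It was lower in spleen than in lymph node (-0.82 ± 0.23 SE, adjusted p = 0.0404), a call lost without lymph node library 1 (-0.69), lymph node library 2 (-0.95) or spleen library 2 (-0.65), or with the replicate block (-0.82), without cells of other types (-0.83), without Ifit-positive cells (-0.79) or without the top 2% of cells by UMIs (-0.79). Between liver and lymph node the difference was 0.14 ± 0.21 (SE; adjusted p = 0.648). The other 4 ligand genes listed, Ifnb1, Ifna1, Ifna2 and Ifna4, were too low to be tested.

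The organs hold different mixtures of iNKT subsets, so the comparison was repeated in cells with at least 2 UMIs of iNKT1 markers and none of iNKT17 markers. Such cells numbered 1760 and 1764 in liver, 1468 and 1334 in spleen, against 464 and 454 in lymph node. Liver against spleen gave 15 members higher in liver and 1 lower (8.58% and 9.71% of 9177 genes, 18.3% in sum). Irf1 differed there by 0.75 ± 0.14 (SE; adjusted p = 4.68e-05) and Igtp by 1.09 ± 0.14 (SE; adjusted p = 7.61e-08). Between liver and lymph node, 10 members were higher in liver and 4 lower (6.17% and 8.89% of genes, 15.1% in sum). Irf1 (1.10 ± 0.17 SE, adjusted p = 1.48e-06) and Parp14 (1.35 ± 0.24 SE, adjusted p = 1.97e-05) were the members whose call held under every alternative. Gbp2 was higher in liver by 1.10 ± 0.21 (SE; adjusted p = 4.21e-05), a call lost with every cell thinned to 1000 UMIs (0.77), and Igtp by 0.73 ± 0.16 (SE; adjusted p = 7.53e-04), a call lost without lymph node library 1 (0.48). Higher in lymph node were Ifit3b, Oasl2, Usp18 and Samd9l, whose calls held under 13 of 15, 9 of 13, 8 of 15 and 13 of 15 alternatives. With at least 3 iNKT1 UMIs, Ifit3b went from -1.66 to -0.45 and Usp18 from -0.80 to -0.43, neither of them called. The 14 calls became 9 without lymph node library 1 and 6 without lymph node library 2 (8.42% and 6.88% of all genes). Between spleen and lymph node, edgeR called 0 members higher in spleen and 2 lower, Ifit3b and Isg20 (1.13% and 3.43% of genes, 4.57% in sum). In that contrast 9 of the 46 tested members had an unadjusted p below 0.05, and DESeq2 called 0. The 2 calls became 0 without lymph node library 1 (2.29% of all genes) and 4 without either liver library (5.08% and 5.10%). In these cells Ifitm2, Oas2, Mx1 and Ifi204 passed the filter on low counts (5.22 CPM in 2 libraries) only with the help of liver. Of the other 42 members, 11 were higher and 1 lower in liver than in spleen, and 10 were higher and 4 lower in liver than in lymph node. Of the 15 further interferon-gamma targets, 9 were higher in liver than in spleen and 7 higher in liver than in lymph node, and none was lower. Of the 18 receptor and signalling genes, 7 were higher and none lower in liver than in spleen, and 4 were higher and 1 lower in liver than in lymph node, against the shares of all genes given above. The median log2 differences of the members were 0.21, 0.29 and -0.05 in the 3 contrasts, against 0.02, 0.00 and 0.01 over all genes. Ifng in these cells was higher in liver than in spleen (0.80 ± 0.23 SE, adjusted p = 0.0305), but lower in liver than in lymph node (-0.85 ± 0.23 SE, adjusted p = 0.0308) and lower in spleen than in lymph node (-1.64 ± 0.25 SE, adjusted p = 0.00225). The first of these calls was lost without liver library 2 (0.40), lymph node library 1 (0.81) or lymph node library 2 (0.80), or without cells of other types (0.85) or without the top 2% of cells by UMIs (0.75). The second was lost without lymph node library 1 (-0.81) or lymph node library 2 (-0.86), or without cells of other types (-0.77). The third was lost without lymph node library 1 (-1.62) or lymph node library 2 (-1.66).

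How these genes were spread over cells was read from single cells. Cells were called Ifit-positive where they held at least 2 UMIs over Ifit1, Ifit2, Ifit3 and Ifit3b. This is a threshold on a score and gives a range of cells, not a cell type. Positive cells were 7.53% of cells in liver library 1 (211 of 2801, exact 95% binomial interval 6.58% to 8.57%) and 7.10% (6.18% to 8.10%) in liver library 2. They were 4.95% (4.16% to 5.83%) and 6.21% (5.33% to 7.20%) in spleen, against 6.75% (5.82% to 7.77%) and 4.46% (3.73% to 5.28%) in lymph node. These intervals cover counting error only. A further 417, 404, 325, 338, 236 and 232 cells of the 6 libraries held exactly 1 Ifit UMI and lie at the edge of the threshold. Liver cells held more UMIs, and when every cell was thinned to 1000 UMIs (leaving out 0 and 9 liver, 144 and 169 spleen and 265 and 488 lymph node cells with fewer) the shares became 1.86% and 3.16% in liver, 2.51% and 4.10% in spleen, against 4.80% and 3.09% in lymph node. The order of the organs turned, so none is read from these shares. In lymph node, positive cells were 3.49% (2.08% to 5.46%) and 1.70% (0.853% to 3.03%) of iNKT17-marker cells. They were 7.76% (5.49% to 10.6%) and 6.61% (4.50% to 9.30%) of iNKT1-marker cells, and the intervals do not overlap in either library. At 1000 UMIs these shares were 2.56% and 0.860% against 5.30% and 3.57%, with intervals that overlap in either library. The markers were read again at that depth and chose fewer cells, 390 and 465 against 283 and 252. The difference between the subsets was not tested. No cell type that lacks these genes was at hand to measure the background of free RNA. A few cells were very rich in Ifit RNA, with a highest count of 34 and 41 UMIs in liver, 16 and 31 in spleen, against 51 and 26 in lymph node.

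Members outside the 4 Ifit genes rose with them. Of the 41 tested between positive and negative cells in a model with the library as a block, 40 were called higher in positive cells and 0 lower by edgeR, where 2.43% of all 8830 genes tested were called higher and 0.362% lower. Of these 41 members, 7 passed the filter on low counts (4.99 CPM in 6 of the 12 sums) only with the help of the positive cells and so had to differ, namely Rsad2, Cmpk2, Ifi204, Mx1, Oas2, Oasl1 and Oasl2. Their differences are given below as a description, with no p. Of the other 34, 33 were called higher. At an unadjusted p below 0.05, 41 of the 41 were higher. DESeq2 called 40 of the 41, against 2.23% of all 8830 genes in either direction. The exception in edgeR was Ifitm3, at 2.89 ± 0.49 (SE; adjusted p = 0.0535). The median log2 difference was 1.66 over the 41 members, including the 7 that had to differ, and -0.02 over all genes. The 4 Ifit genes chose the cells and were left out of these counts, and the other members are tied to them only through the cells. Positive cells held somewhat more UMIs than negative ones (medians of 4087 against 3551.5 in liver library 1 and 1586 against 1466 in lymph node library 2). Markers of B cells were at 0 in the positive cells of 4 libraries and at most 11.8 CPM in the other 2. Those of myeloid cells were 198 to 299 CPM in positive and 200.5 to 374 in negative cells. Dendritic cell markers stood at 0 to 5.88 CPM in positive and 0.580 to 2.32 in negative cells, and were higher in positive cells in 3 of 6 libraries. Markers of iNKT17 cells were lower in positive cells in 6 of 6 libraries, at 69.3 to 673 against 104 to 1185 CPM, and in lymph node at 673 and 641 against 1098 and 1185. Markers of iNKT1 cells were lower in positive cells in the 4 liver and spleen libraries, at 3073 and 2705 against 3277 and 3473 CPM in liver and at 1690.2 and 1664 against 2117 and 1925 in spleen, but higher in lymph node, at 893 and 1111 against 845 and 827. Markers of cycling cells were higher in positive cells in liver (429 and 557 against 306 and 417 CPM) and lymph node library 1 (169 against 148). They were lower in spleen (67.6 and 179 against 202 and 299) and lymph node library 2 (118 against 184). The part of these markers in the differences was not tested. Within iNKT1-marker cells alone, 32 of the 33 members tested were called higher in positive cells (3.30% of all genes were called there in either direction). Members that passed the filter there only through the positive cells were not separated, so this count is a description. With at least 1 UMI in place of 2, the difference was smaller for 39 of 39 members called with 2, with a median of 1.09 against 1.65.

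The difference of Rsad2 was the largest in size. In positive cells its CPM were 109 and 178 in liver, 116 and 273 in spleen, against 252 and 188 in lymph node, against 4.17 and 5.53 in liver, 4.90 and 5.36 in spleen, against 6.67 and 6.33 in lymph node in negative cells, a log2 difference of 5.05 ± 0.15 SE. Usp18 stood at 117 and 184 in liver, 155 and 208 in spleen, against 313 and 241 in lymph node in positive cells and at 9.78 to 14.7 in negative cells (3.98 ± 0.15 SE, adjusted p = 3.60e-22). Cmpk2 ranged over 50.7 to 212 against 4.33 to 10.7 (3.70 ± 0.19 SE). Rsad2 and Cmpk2 are neighbours on chromosome 12. Both are among the members that had to differ, so their place among the 4 largest differences is a description. Isg15 stood at 1122 and 1749 in liver, 1367 and 1497 in spleen, against 1346 and 993 in lymph node in positive cells, and was also plentiful in negative cells, at 149 and 206 in liver, 176 and 151 in spleen, against 105 and 95.2 in lymph node (3.21 ± 0.09 SE, adjusted p = 7.69e-11). Ifi204 ranged over 11.8 to 122 against 0 to 3.48 (4.39 ± 0.35 SE), from few UMIs, and reached the filter in the 6 positive sums and in none of the negative ones. The differences of Mx1 (3.25 ± 0.29 SE) and Oas2 (2.49 ± 0.37 SE) came from low levels. In positive cells these were 14.5 to 73.1 and 4.83 to 25.7 CPM, against 1.73 to 10.2 and 1.09 to 5.17 in negative cells.

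Of the other type I members, Slfn5 stood at 35.3 to 97.9 CPM in positive cells against 8.502 to 13.4 in negative cells (2.91 ± 0.18 SE, adjusted p = 7.20e-21), and Isg20 at 188 to 425 against 37.2 to 45.8 (2.61 ± 0.11 SE, adjusted p = 4.82e-22). Oasl1, at 11.8 to 49.4 against 3.19 to 7.85, differed by 2.58 ± 0.24 SE. Oasl2, the lymph-node-high member, stood at 50.7 and 49.4 in liver, 48.3 and 65.3 in spleen, against 133 and 64.6 in lymph node in positive cells and at 3.56 and 4.46 in liver, 7.08 and 7.74 in spleen, against 29.3 and 31.7 in lymph node in negative cells (2.62 ± 0.37 SE). In lymph node it was thus plentiful in negative cells too. The factors of the pathway were also higher in positive cells, with 1.85 ± 0.14 (SE; adjusted p = 3.63e-06) for Irf7, 1.52 ± 0.21 (SE; adjusted p = 7.04e-08) for Stat2 and 1.07 ± 0.10 (SE; adjusted p = 8.09e-13) for Irf9.

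The 5 interferon-gamma targets were also higher in positive cells, with a median log2 difference of 1.43. The median of the 36 type I members tested is not set beside it, because these hold the 7 members that had to differ. Iigp1 stood at 151 and 168 in liver, 116 and 188 in spleen, against 274 and 206 in lymph node in positive cells against 22.0 to 50.3 in negative cells (2.47 ± 0.32 SE, adjusted p = 0.0168). This call was lost without liver library 1 (2.63), spleen library 1 (2.51), spleen library 2 (2.40) or lymph node library 2 (2.39), while the difference stayed above 2 in each of these. Gbp2 stood at 274 and 225 in liver, 188 and 188 in spleen, against 238 and 94.0 in lymph node against 47.0 to 126 (1.43 ± 0.18 SE, adjusted p = 0.00175), a call lost without liver library 1 (1.36) or spleen library 2 (1.43). Irgm1 ranged over 217 to 346 against 64.6 to 124 (1.49 ± 0.09 SE, adjusted p = 2.02e-21), and Igtp over 326 to 630.4 against 117 to 288 (1.29 ± 0.07 SE, adjusted p = 8.54e-23). Irf1 moved least, at 264 and 263 in liver, 169 and 122 in spleen, against 133 and 41.1 in lymph node in positive cells and 203 and 214 in liver, 122 and 103 in spleen, against 88.7 and 68.2 in lymph node in negative cells. Its difference of 0.37 ± 0.09 (SE; adjusted p = 0.00863) was the smallest of the 41, its positive cells were lower than its negative cells in lymph node library 2, and the call was lost without liver library 1 (0.35) or liver library 2 (0.39), or under 5 other alternatives with values from 0.13 to 0.37, and held under 9 of 16. With at least 1 Ifit UMI in place of 2 its difference was 0.13, and within iNKT1-marker cells 0.22. Whether the 2 groups of targets differ in this was not tested.

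The share of a gene's UMIs that lay in positive cells shows how far its RNA went with the Ifit class, and not in how many cells the gene was on. Positive cells held 4.67% to 9.14% of a library's UMIs of the genes kept (without ribosomal and haemoglobin genes). They held a median of 73.4% (57.1% to 78.8%) of the UMIs of Rsad2 over the 6 libraries, 54.5% (37.2% to 69.6%) of Usp18, 49.4% of Cmpk2, 42.7% of Mx1 and 42.5% (30.5% to 50.7%) of Isg15. Of the 43 members outside the Ifit genes, 6 had more than 40% there and 28 had under 25%. For Iigp1 the share was 29.2%, for Irgm1 17.9%, for Igtp 16.7%, for Gbp2 15.2%, for Irf9 14.0%, for Ifi27l2a 13.3% and for Irf1 8.99%. The median was 22.3% over type I members and 16.7% over interferon-gamma targets. In 40 of the 43 members the level in positive cells was the higher in all 6 libraries, the exceptions being Ifitm2, Irf1 and Ifi44. Thus most members had the larger part of their UMIs in cells with fewer than 2 Ifit UMIs, while being higher in the cells with more.

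**Figure D3:**
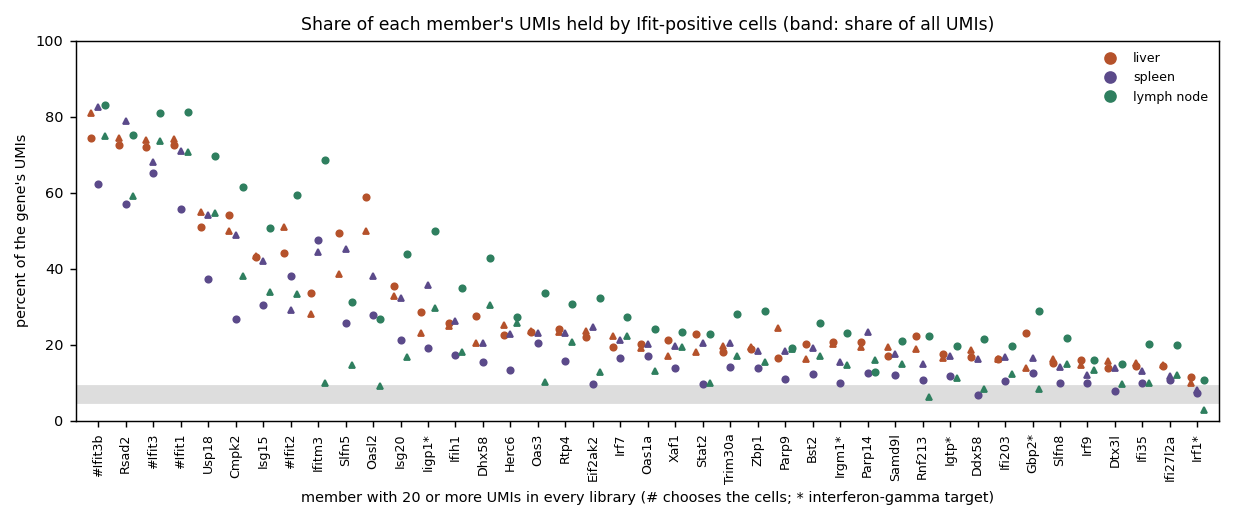
Percent of each member's UMIs that lay in Ifit-positive cells, for the 41 members with at least 20 UMIs in every library. Each point is a library (circle for library 1, triangle for library 2), and # marks the 4 genes that chose the cells. The grey band is the range of the share of UMIs of all genes kept that positive cells held (4.67% to 9.14%). Rsad2, at 57.1% to 78.8%, overlaps Ifit1, Ifit3 and Ifit3b, Ifit2 lies lower with a median of 41.1%, and the points fall in steps to Irf1, at or near the band.

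Members were also counted per cell at equal depth. With every cell at 1000 UMIs, 38 type I members outside the Ifit genes could be seen. Cells with at least 2 Ifit UMIs showed a mean of 6.67 and 7.38 of them in liver, 5.91 and 6.23 in spleen, against 6.49 and 6.21 in lymph node. Cells with no Ifit UMI showed 2.15 and 2.29, 1.97 and 1.98, and 1.54 and 1.59. Cells with exactly 1 Ifit UMI lay between, from 2.74 to 3.86. At least 5 members were seen in 61.5% to 78.9% of the first group and in 3.66% to 8.97% of the second. The groups overlap, however. Thinning itself moves cells between the groups, as positive cells of liver library 1 went from 211 to 52. Whether the cells form a range or separate classes was therefore not tested. Interferon-gamma targets per cell ran from 0.712 to 1.21 of 5 in the first group and from 0.232 to 0.453 in the second. Ifi27l2a, the most abundant member, had a UMI in 34.6 to 60.7 percent of all cells at this depth, whereas Rsad2 had one in 0.696 to 1.39 percent, Isg15 in 8.81 to 15.4 percent and Irf1 in 4.28 to 12.8 percent.

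**Figure D4:**
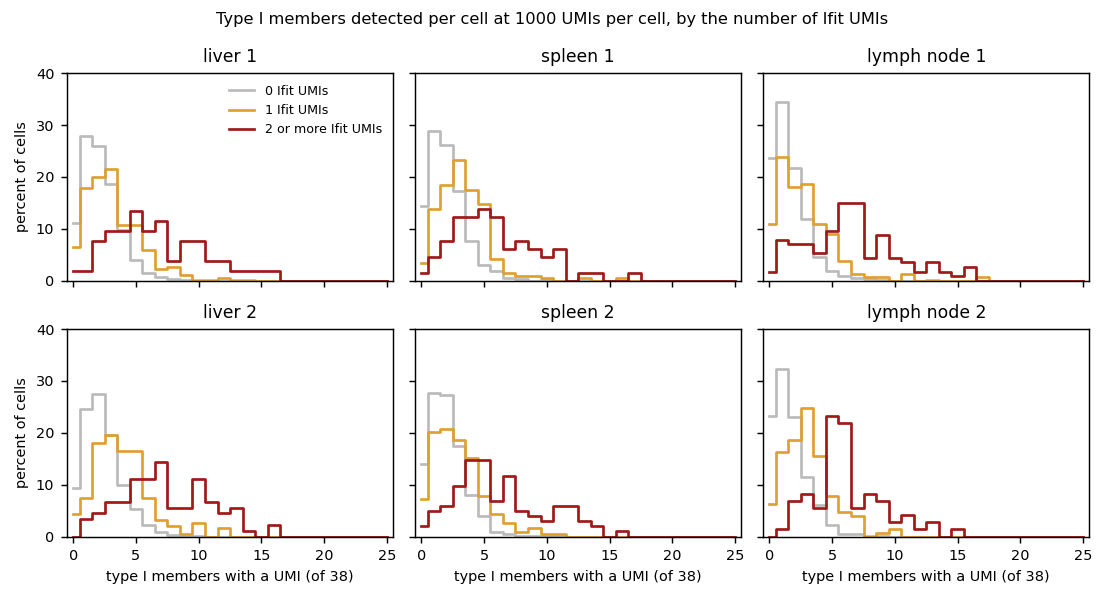
Percent of cells by the number of type I members (of 38, Ifit genes left out) with a UMI, with every cell thinned to 1000 UMIs, 1 panel per library. Lines are cells with 0 (grey), 1 (orange) and 2 or more (red) Ifit UMIs. In each panel the red line lies farthest to the right (means of 5.91 to 7.38), the grey line farthest to the left (1.54 to 2.29), and the orange line between them.

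The difference between positive and negative cells was not of 1 size in every organ. For 9 of the 41 members the interaction of cell group and organ had an adjusted p below 0.05 in edgeR, against 0.419% of all genes tested. Of these, 8 had a larger difference in lymph node than in liver. Oasl2 had a smaller one. It passed the filter on low counts only with the help of the positive cells, so its difference is a description. Ifi27l2a stood at 2979 and 3622 in liver, 2902 and 2390.0 in spleen, against 2749.7 and 2098 in lymph node in positive cells and at 1768 and 1908 in liver, 1346 and 1294 in spleen, against 893 and 749.9 in lymph node in negative cells, so that the positive cells of the organs lay nearer to each other than the negative ones. Its log2 difference was 0.88 for liver, 1.01 for spleen and 1.58 for lymph node. As given above, the share of cells past 2 Ifit UMIs moved with depth. With every cell at 1000 UMIs, an alternative added after seeing the data, 1 of 38 members was called (Ifi27l2a, 0.91 more in lymph node than in liver), and 7 had an unadjusted p below 0.05. Over all genes 6 of 7248 (0.0828%) were called there, against 37 of 8830 at full depth. That setting leaves fewer UMIs to test, and the sizes of the differences did not all shrink with the calls. Lymph node minus liver at 1000 UMIs, against full depth, was 1.03 against 0.89 for Irf7, 0.82 against 0.88 for Trim30a, -1.66 against -1.86 for Oasl2 and 0.62 against 0.83 for Zbp1. It was 0.55 against 1.51 for Iigp1, 0.36 against 0.83 for Bst2, 0.39 against 0.70 for Rtp4 and -0.10 against 0.53 for Isg15.

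**Figure D5:**
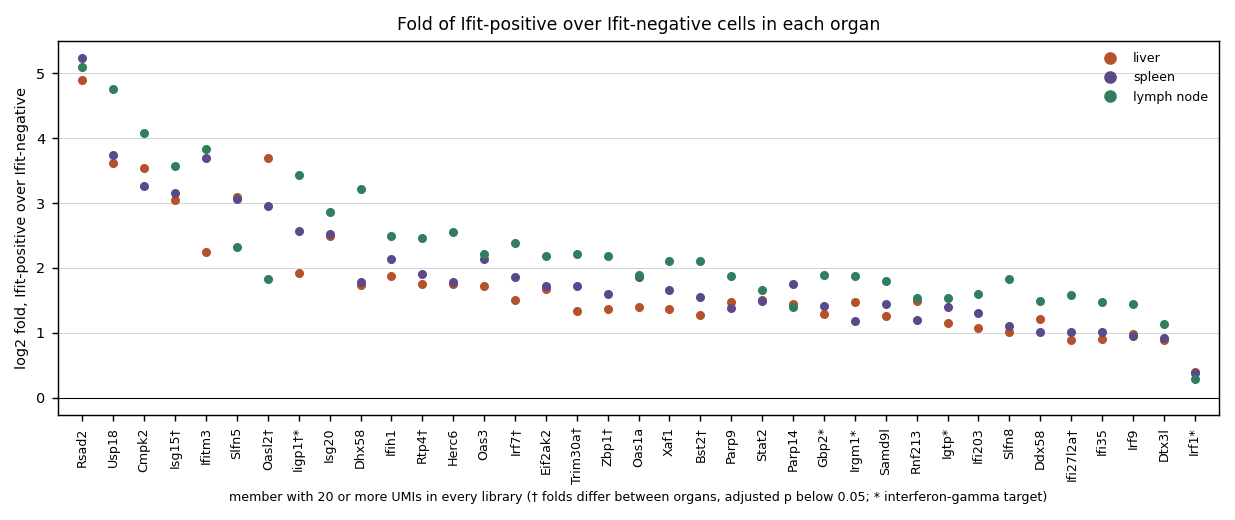
Log2 difference of Ifit-positive over Ifit-negative cells in each organ for tested members with at least 20 UMIs in every library, ordered by the difference over all libraries, without error bars. Genes marked † differ between organs at an adjusted p below 0.05 at full depth. Oasl2 is among the members that passed the filter only with the help of the positive cells, so its difference is a description. All points lie above 0, Rsad2 has the largest and Irf1 the smallest difference in every organ shown, and lymph node is the highest for most genes but the lowest for Oasl2, Slfn5, Parp14 and Irf1.

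In the rest of the pathway, most of the further interferon-gamma targets were higher in Ifit-positive cells, and fewer of the receptor and signalling genes were. Of the 15 tested, 14 were higher in positive cells, where 2.43% of all genes tested were higher and 0.362% lower. Their median log2 difference was 1.03, Gbp6 having the largest (1.77 ± 0.12 SE, adjusted p = 2.10e-18). Of 18 receptor and signalling genes, 4 were higher, among them Jak2, Irf2 and the inhibitor Socs1, and Ifngr1 was lower (-0.45 ± 0.08 SE, adjusted p = 1.17e-05). Of 5 sensors and adaptors, 1 had an unadjusted p below 0.05 and none passed the adjustment. Ifng was higher in positive cells by 0.68 ± 0.10 (SE; adjusted p = 1.68e-06).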

How the data were processed

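The authors made 10x Genomics 3′ v2 libraries, and the submitters' processing notes name Cell Ranger 3.1.0, Seurat and the mm10 build. The deposited matrices hold raw UMI counts per gene and cell barcode, beside lists of genes and barcodes, which hold other values (names) only. The version of the gene annotation is not given in the sources used here. Barcodes with under 300 or over 4000 genes or over 15% mitochondrial UMIs were removed (55 of 16587), and 123 ribosomal and haemoglobin genes, with 23.4% to 34.5% of UMIs, were left out. UMIs were summed per library, or per library and Ifit class, and tested with edgeR 4.0.16 (TMM scaling, filterByExpr, robust quasi-likelihood, R 4.3.3) and Benjamini-Hochberg adjustment over all genes tested. Intervals of a log2 difference use the t distribution with each gene's fitted degrees of freedom. The test was tried on simulated data first. DESeq2 1.42.0, RLE scaling, no filter, thinning to 1000 UMIs, other gates and leaving out each library were alternatives; no doublet caller was run, and leaving out the top 2% of cells by UMIs stood in for one. For the Ifit classes, iNKT1-marker cells alone, thinning and a limit of 3 UMIs in the organ interaction were added after the data were seen. Promoters come from RefSeq (GRCm38.p6) and positions from GENCODE vM21. The members, lists and tests were chosen with earlier results of these data known. The rule for named genes took the 12 members with the largest differences between organs, the 12 largest between Ifit classes, and 11 listed ones. Others, among them Ifit2, Ifit3b and the named genes of the pathway list, were chosen after their values were seen. One gene of the pathway list is not reported here.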

Additional observations from a re-analysis of the deposited data

Results flagged for a closer look

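For 9 members the log2 difference between Ifit-positive and Ifit-negative cells differed between organs by the interaction test of edgeR, which is what marks them for a closer look. It was larger in lymph node than in liver by 1.51 for Iigp1, 0.89 for Irf7, 0.88 for Trim30a, 0.83 for Bst2, 0.83 for Zbp1, 0.70 for Rtp4, 0.70 for Ifi27l2a and 0.53 for Isg15. For Oasl2 lymph node minus liver was -1.86. This is a description, as Oasl2 passed the filter on low counts only with the help of the positive cells. Iigp1 differed between positive and negative cells by 1.92 for liver, 2.57 for spleen and 3.43 for lymph node, and spleen lay between the other organs for all 9 members. Without Oasl2, the adjusted p in edgeR ranged from 4.73e-11 (Ifi27l2a) to 0.0132 (Isg15). The median UMIs per cell of liver were above those of the other organs. With every cell thinned to 1000 UMIs, which also leaves fewer UMIs to test, Ifi27l2a was called, at 0.91, and the other members were not. Their differences at that depth were 1.03 for Irf7, 0.82 for Trim30a, 0.62 for Zbp1 and -1.66 for Oasl2. They were 0.55 for Iigp1, 0.39 for Rtp4, 0.36 for Bst2 and -0.10 for Isg15. With at least 3 Ifit UMIs in place of 2, Trim30a (0.69), Rtp4 (0.58) and Isg15 (0.31) were not called.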

How the results depend on the processing

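With DESeq2 the counts of members called between organs were 11 (liver and spleen), 23 (liver and lymph node) and 9 (spleen and lymph node) in all cells. In iNKT1-marker cells they were 5, 7 and 0 in the same order. For the count of 0, 6 members had an unadjusted p below 0.05 in DESeq2. Over all genes DESeq2 called 14.0%, 25.1% and 11.1% in all cells, against 25.8%, 37.5% and 18.2% by edgeR, and 5.48%, 7.32% and 2.24% in iNKT1-marker cells. Thinning to 1000 UMIs left 12, 27 and 10 in all cells (18.1%, 30.1% and 15.7% of all genes) and 7, 6 and 1 in iNKT1-marker cells (10.3%, 8.19% and 2.90%). A gate of at least 3 iNKT1 UMIs left 13, 9 and 0 (14.2%, 10.3% and 2.76% of all genes called). For this count of 0, edgeR gave 8 at an unadjusted p below 0.05. Leaving out each library in turn gave 13 to 18, 20 to 30 and 7 to 18 in all cells, 12 to 18, 6 to 16 and 0 to 4 in iNKT1-marker cells, and 37 to 41 between Ifit classes, where the shares of all genes called were 13.0% to 22.9%, 22.8% to 38.3% and 9.68% to 18.4%, then 7.498% to 18.0%, 6.88% to 15.7% and 2.29% to 5.10%, and 2.21% to 2.66%. The replicate numbers did not pair the libraries (correlations of 0.086, 0.083 and 0.068), and with a replicate block the counts were 19, 29 and 17 in all cells (29.9%, 40.7% and 20.9% of all genes) and 19, 15 and 2 in iNKT1-marker cells (22.8%, 17.3% and 5.21%). The mean share of Ifit-positive cells in liver, spleen and lymph node was 21.8%, 17.9% and 14.1% with at least 1 UMI, 4.32%, 2.83% and 3.46% with at least 3, and 2.51%, 3.31% and 3.95% at 1000 UMIs, and with 5 other genes (Rsad2, Usp18, Isg15, Cmpk2 and Oasl1) 13.0%, 6.77% and 5.38%. The organ difference between Ifit classes was called for 1 member at 1000 UMIs (6 of 7248 genes). With at least 3 Ifit UMIs it was called for 7 of 41, Oasl2 among them (32 of 8847 genes). Lymph node minus liver was then not called for Trim30a (0.69), Rtp4 (0.58) and Isg15 (0.31), while Ifitm3 (1.49) was called there and not with 2. That of Isg15 turned to -0.10 at 1000 UMIs. The causes were not tested. Of the single calls in all cells, 823 of 973 were kept over the alternatives, 150 were lost and 0 turned; in iNKT1-marker cells 373 of 463 were kept and 90 lost, and between Ifit classes 603 of 621 were kept. Members that had to differ through a filter, such as Ifitm2 and Oas2, are part of these counts. Members with few UMIs, such as Ifitm2, Oas2, Mx1 and Ifi204, are limited by depth.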

Other observations

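Beyond the members, 175 other genes were higher in Ifit-positive cells, 56 of them at least 2-fold, and 32 were lower. The 5 with the largest differences were Cxcl10, a chemokine induced by interferon (3.05 ± 0.39 SE on the log2 scale, adjusted p = 0.0154 in edgeR), Phf11a (2.39), Phf11d (2.35), Tor3a (2.17) and Phf11c (2.16). The Phf11 genes are close relatives, between which reads may be divided uncertainly. Tor3a stood at 29.3 to 115 normalized CPM in positive cells and at 16.3 to 19.1 in negative cells.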
